A study of Mus musculus with 6 samples.

Results

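The 39 genes described here are 19 genes of DNA replication and 20 genes of mitosis, taken by symbol from a list of cell cycle genes and followed through all 6 libraries of the series. All 39 were found among the 46078 gene identifiers of the count table and in the authors' deposited table of 13559 genes, and all 39 were among the 12078 genes with a mean level of at least 1 CPM. CPM stands for counts per 1000000 scaled reads. The genes are called S phase and mitotic genes after their best known function, not after a measurement of phase.

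The cells were MLE12, an immortalised line of mouse lung epithelium derived from a mouse that carries a viral large T antigen. Large T binds the retinoblastoma family and p53, and the 6 cultures share it as their common background. The parental line, labelled wild-type, was sampled once without a scratch and once 24 hours after the monolayer was scratched with a pipet tip. Each of 4 knockout lines, labelled Lingo1 KO, Lingo2 KO, Lingo3 KO and TROY KO and here called the Lingo1, Lingo2, Lingo3 and TROY mutants, was sampled once 24 hours after the same scratch. No mutant was sampled without a scratch. The labels do not say how the knockouts were made or whether each line is 1 clone. With 1 library per group there was no replicate error, so no test was made and no p-value is given. The intervals below are 95% intervals and cover counting error only. Line, culture and genotype cannot be told apart in this design.

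A dividing cell copies its DNA in S phase and separates the copies in mitosis. The MCM helicase is loaded on origins in G1 by Cdc6 and Cdt1 and is switched on by Cdc45 and the GINS complex, while cyclin E and its kinase drive entry into S phase and ribonucleotide reductase supplies the nucleotides. Transcripts of these genes are controlled by E2F factors and peak around the start of S phase. Transcripts of cyclin B, Aurora and Polo-like kinases, spindle motors, and Cdc20 and Ube2c, which serve the anaphase-promoting complex, peak later, in G2 and mitosis. They are controlled by the MuvB complex with B-Myb and FoxM1 through a promoter element named CHR. Their promoters often also hold a separate element named CCAAT. In a culture, both sets are high when many cells cycle.

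The promoters of the members carry these different letters, and 6 are printed to show the contrast between sets. They were taken from the RefSeq table of build GRCm38.p6, in which 16 of the 19 S phase members and 17 of the 20 mitotic members were matched. Mcm4, Gins2, Ccne2, Ccna2, Aurkb and Tpx2 were not matched. The runs end at the base before the start of transcription, or, for Rrm2, at the base before the first annotated exon. They read 5′ to 3′ on the strand of the gene, and capitals mark the letters searched: TTCCCGC or TTGGCGC for E2F (GCGGGAA and GCGCCAA on the other strand), TTTGAA or TTCGAA for the CHR element (TTCAAA and TTCGAA on the other strand) and CCAAT or its complement ATTGG. The letters ATTGG and TTGGCGC can share bases.
Mcm5, a helicase subunit (chr8:75109259-75109508, plus strand): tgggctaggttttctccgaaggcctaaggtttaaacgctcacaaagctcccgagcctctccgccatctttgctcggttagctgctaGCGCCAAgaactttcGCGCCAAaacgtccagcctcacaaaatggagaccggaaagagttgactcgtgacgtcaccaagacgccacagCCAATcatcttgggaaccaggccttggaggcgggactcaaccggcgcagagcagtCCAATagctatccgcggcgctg
Rrm1, the large subunit of ribonucleotide reductase (chr7:102441445-102441694, plus strand): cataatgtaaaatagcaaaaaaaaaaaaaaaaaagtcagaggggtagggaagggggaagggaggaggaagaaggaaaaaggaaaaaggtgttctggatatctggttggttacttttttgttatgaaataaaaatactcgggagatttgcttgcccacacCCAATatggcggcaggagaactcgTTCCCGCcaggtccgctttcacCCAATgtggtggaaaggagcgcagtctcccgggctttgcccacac
Rrm2, its small subunit (chr12:24708004-24708240, plus strand): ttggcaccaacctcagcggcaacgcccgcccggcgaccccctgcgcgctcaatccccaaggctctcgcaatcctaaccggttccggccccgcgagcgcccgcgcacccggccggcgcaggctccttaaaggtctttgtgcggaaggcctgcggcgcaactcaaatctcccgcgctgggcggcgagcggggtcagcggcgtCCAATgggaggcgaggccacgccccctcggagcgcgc
Ccnb2, cyclin B2 (chr9:70421555-70421804, minus strand): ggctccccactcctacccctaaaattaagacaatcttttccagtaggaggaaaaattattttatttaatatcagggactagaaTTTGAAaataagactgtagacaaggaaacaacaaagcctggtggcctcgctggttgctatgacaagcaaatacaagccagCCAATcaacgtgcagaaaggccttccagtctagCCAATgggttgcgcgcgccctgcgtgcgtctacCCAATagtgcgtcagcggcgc
Top2a, topoisomerase II alpha (chr11:99024190-99024439, minus strand): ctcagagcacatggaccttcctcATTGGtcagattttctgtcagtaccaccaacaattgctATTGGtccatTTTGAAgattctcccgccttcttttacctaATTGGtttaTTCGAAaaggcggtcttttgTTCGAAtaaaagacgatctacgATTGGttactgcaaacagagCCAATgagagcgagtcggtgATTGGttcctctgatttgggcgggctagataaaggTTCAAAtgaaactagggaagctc
Mki67, the Ki-67 protein (chr7:135716380-135716629, minus strand): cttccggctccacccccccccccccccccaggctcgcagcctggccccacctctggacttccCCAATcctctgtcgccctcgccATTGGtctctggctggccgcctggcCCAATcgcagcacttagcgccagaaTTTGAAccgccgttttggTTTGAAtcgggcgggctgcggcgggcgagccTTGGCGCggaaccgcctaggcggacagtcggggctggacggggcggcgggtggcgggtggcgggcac

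Mcm5 and Rrm1 show E2F letters with CCAAT and no CHR letters, Ccnb2 and Top2a show CHR letters with CCAAT and no E2F letters, and Mki67 shows all 3 kinds. Rrm2, an S phase gene by function whose values below lie with those of the mitotic genes, shows CCAAT alone. In the longer windows counted next, Pcna also held CCAAT alone, and Mcm2, Mcm7 and Cdc45 held CHR letters with CCAAT. These S phase genes lay below both parental libraries in every mutant. A link between letters and values was not tested. Counted over windows from 250 bases before to 50 bases after each start, E2F letters stood in 8 of the 16 matched S phase genes (50%) and in 3 of the 17 matched mitotic genes (17.65%), against 7.79% of 27025 genes in the table. CHR letters together with CCAAT stood in 3 of 16 S phase genes and in 13 of 17 mitotic genes (76.47%), against 8.61% of all genes. A match of letters is a description and shows no binding.

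Between 28109825 and 30776294 reads were counted in genes per library, and the members had between 152 and 43098 counts in a library, so counting error was small for nearly all of them. A count of 3 corresponded to between 0.0984 and 0.108 CPM. Of the epithelial markers Epcam, Cdh1, Krt8 and Krt18, the summed level was 970 CPM in the unscratched and 915 CPM in the scratched parental library and 1392 to 1485 CPM in the mutants. The 8 alveolar type II markers, of which 4 passed the minimum level, summed to 389 and 348 CPM in the parental libraries and to between 440 and 615 CPM in the mutants. Sftpb, a surfactant protein, stood at 40.1, 35.6, 164, 144, 164 and 87.0 CPM, in the order unscratched parental, scratched parental, Lingo1, Lingo2, Lingo3 and TROY, and Sftpc at 16.5, 18.3, 40.7, 42.0, 81.9 and 19.8 CPM. Sftpd was at 0 in all 6 libraries. The endothelial markers Pecam1, Cdh5, Vwf and Kdr summed to 8.91 CPM in the scratched parental library and to 1.13 to 2.23 CPM in the others, and the immune markers to 1.63 to 3.02 CPM. The 5 fibroblast markers summed to 2578 to 3461 CPM, of which Dcn gave 2532 to 3321 CPM. Col1a1, a collagen chain, stood at 62.3, 44.8, 170, 136, 398 and 146 CPM and Pdgfrb at 0.105, 0.033, 1.88, 1.31, 11.4 and 0.432 CPM in the same order, both highest in Lingo3, and Col1a2 at 0.108 CPM or less. The median log2 fold of the 4 fibroblast markers past the minimum level was 1.23 in Lingo1, 1.22 in Lingo2, 2.56 in Lingo3 and 1.16 in TROY. The part of any of these in the results was not tested.

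**Figure D1:**
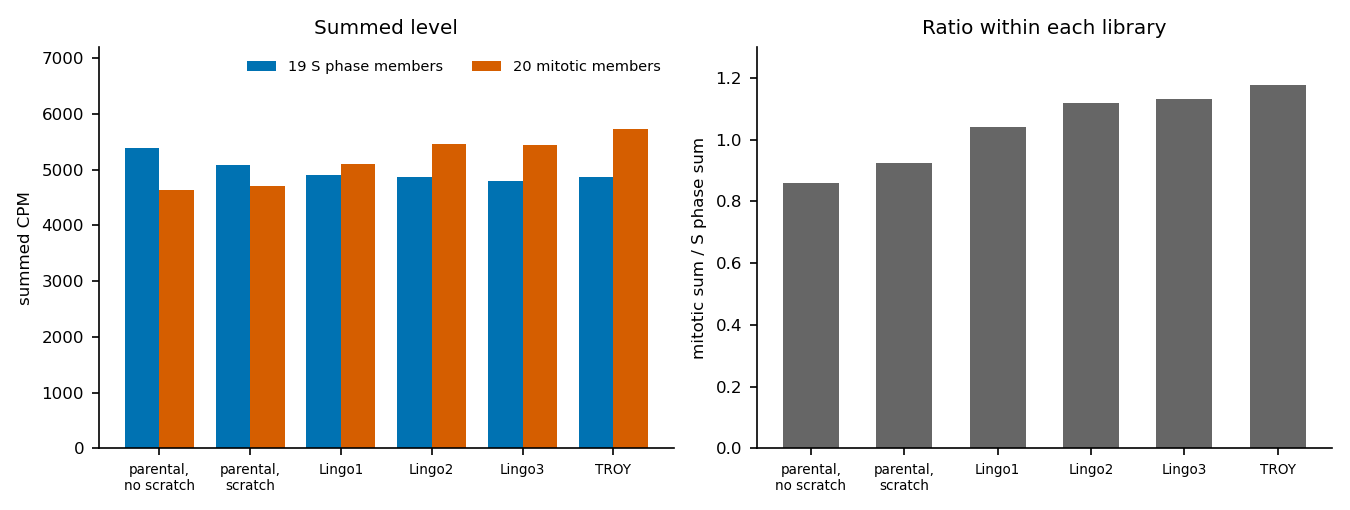
Summed level of the 19 S phase members and the 20 mitotic members in each library, in CPM, a read count not divided by length (left), and the mitotic sum divided by the S phase sum within the same library (right). The S phase sum is the larger in both parental libraries and the mitotic sum is the larger in all 4 mutant libraries, with ratios from 0.860 to 1.18. Per length the S phase sum was the larger in all 6.

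By read count, which weighs long transcripts more, the S phase genes together stood above the mitotic genes in both parental libraries and below them in all 4 mutant libraries. Where 6 values stand in a row here, their order is unscratched parental, scratched parental, Lingo1, Lingo2, Lingo3 and TROY. The 19 S phase genes summed to 5387, 5084, 4901, 4869, 4802 and 4867 CPM. The 20 mitotic genes summed to 4632.5, 4707, 5109, 5451, 5440 and 5726 CPM. The ratio of the mitotic to the S phase sum, which no scaling between libraries can touch, was 0.860, 0.926, 1.04, 1.12, 1.13 and 1.18. The plot of summed levels shows that the S phase sum differed little between the 4 mutants and that the mitotic sum was lowest in Lingo1 and highest in TROY among them. The sums weigh genes by abundance, and Top2a alone gave 1061 of the 4632.5 CPM in the unscratched parental library. Per length the order of the sums did not turn. In RPKM of the authors' deposited table the S phase genes summed to 1659, 1592, 1508, 1506, 1481 and 1491 and the mitotic genes to 1183, 1206, 1304, 1407, 1409 and 1418. The S phase sum was the larger in all 6 libraries on that scale, and the ratio, 0.714, 0.758, 0.865, 0.935, 0.951 and 0.951, was again higher in the 4 mutants than in both parental libraries. In bulk RNA, a smaller share of cells in a phase and less RNA per cell in that phase cannot be told apart.

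Every difference between 2 libraries is given as a fold, the ratio of scaled counts. Of the 2 rules of size used, the 2-fold rule asks for a fold of at least 2 with the interval bound nearest to 1 beyond 1.5, and the 1.3-fold rule for a fold of at least 1.3 with that bound beyond 1.1. Higher and lower are used below, without further values, for genes past the 1.3-fold rule. No member passed the 2-fold rule in any of the 5 comparisons. The same rule was passed, in either direction, by 0.0828% of tested genes for scratched against unscratched parental cells, and by 3.62% in Lingo1, 3.50% in Lingo2, 7.19% in Lingo3 and 2.24% in TROY against the scratched parental library. All differences of the members given below are smaller than 2-fold.

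The scratch comparison asks what differed 24 hours after wounding in the parental line. None of the 39 members passed the 1.3-fold rule in it, where 0.737% of tested genes were higher and 0.845% lower. The median log2 fold was -0.09 for the S phase genes, 14 of which had a fold below 1, and 0.02 for the mitotic genes, 14 of which had a fold above 1, against -0.01 for all tested genes. The lowest fold with a narrow interval was that of Cdt1, the licensing factor destroyed once replication begins, at 211 CPM in the unscratched and 177 CPM in the scratched library (0.841, 0.810 to 0.872). The highest was that of Ccne2, cyclin E2, at 55.5 and 64.2 CPM (1.16, 1.08 to 1.24). Bub1, a spindle checkpoint kinase, stood at 78.5 and 88.1 CPM (1.12, 1.06 to 1.19) and Aurka, Aurora kinase A, at 74.0 and 82.0 CPM (1.11, 1.04 to 1.17). All 6 MCM subunits had folds between 0.886 and 0.957. With 1 culture on each side, no difference of this size could be set against the spread between cultures.

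**Figure D2:**
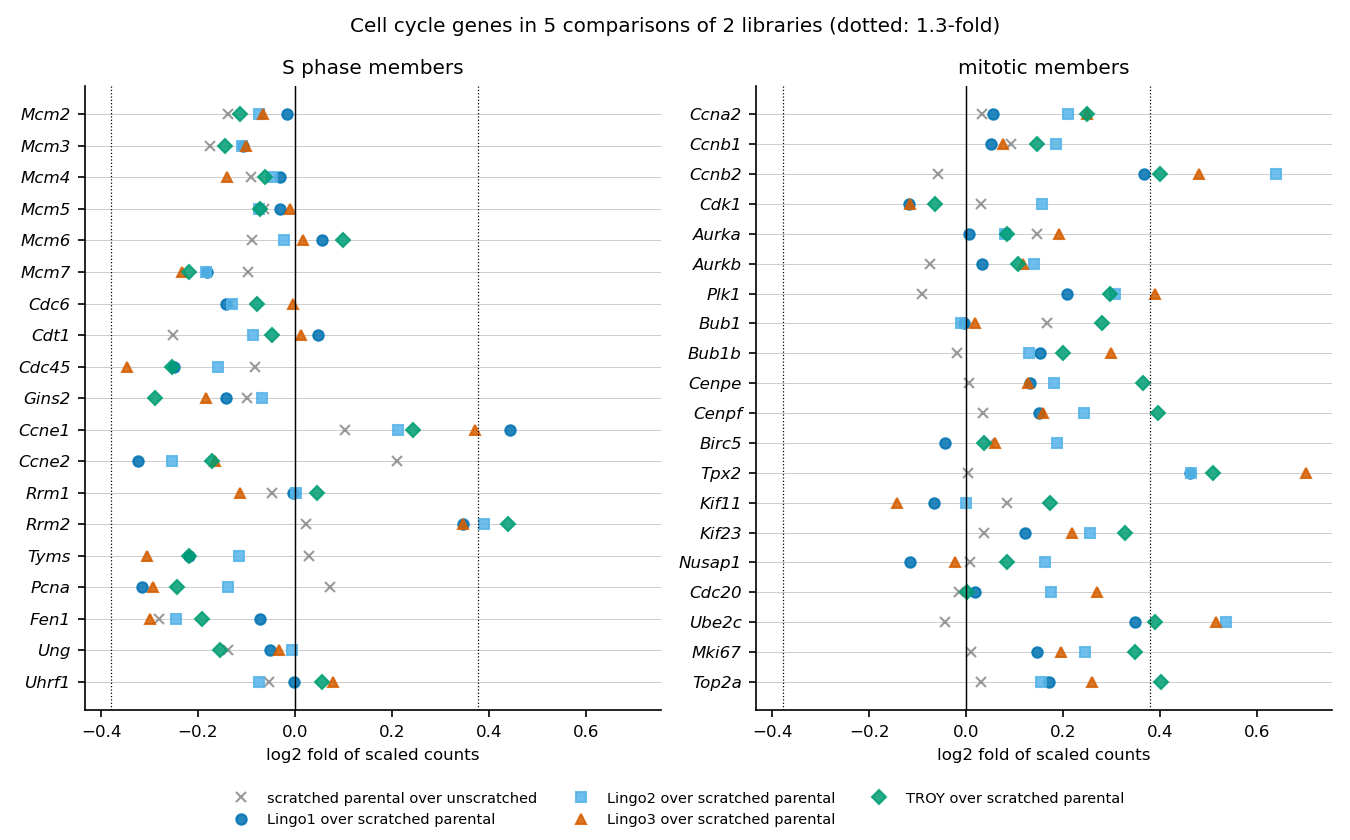
Log2 fold of scaled counts for each S phase member (left) and mitotic member (right) in the 5 comparisons, 1 symbol per comparison, with dotted lines at 1.3-fold. Most S phase symbols of the mutants lie left of 0 and most mitotic symbols right of it, and Rrm2 and Ccne1 lie to the right among the S phase genes.

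The 4 mutant comparisons ask how wounded knockout monolayers differ from the wounded parental monolayer, and they share 1 control library, so their values stand side by side here and their likeness is not a result. With TMM scaling, members past the 1.3-fold rule were all higher and none was lower. In the Lingo1 mutant these were Ccne1 and Tpx2 (background 11.3% of tested genes higher and 9.46% lower). In the Lingo2 mutant they were Rrm2, Ccnb2, Tpx2 and Ube2c (11.1% and 8.60%), and in the Lingo3 mutant Ccnb2, Plk1, Tpx2 and Ube2c (17.4% and 14.1%). In the TROY mutant they were Rrm2, Ccnb2, Cenpf, Tpx2, Ube2c and Top2a (9.02% and 7.57%). Set against those shares, 5 of 20 mitotic members in TROY, 4 of 20 in Lingo3, 3 of 20 in Lingo2 and 1 of 20 in Lingo1 were higher. In Lingo1, Lingo2 and Lingo3 those counts are near the background. Of the 19 S phase members, 1, 1, 0 and 1 were higher in Lingo1, Lingo2, Lingo3 and TROY. With total counts in place of TMM scaling, the mitotic members higher in Lingo1, Lingo2, Lingo3 and TROY numbered 1, 3, 3 and 1, and Tpx2 was the 1 left in TROY. On that scaling 0 S phase members were higher in each mutant, and 2 were lower in Lingo1 (Ccne2, at 0.759, and Pcna, at 0.763) and 1 in Lingo3 (Cdc45, at 0.750). The share of all tested genes past the rule with total counts is not given here, so these counts cannot be set against a background.

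The replication and mitotic genes stood apart by their medians more than by single genes past the rule. The median log2 fold of the S phase genes was -0.05 in Lingo1, -0.07 in Lingo2, -0.10 in Lingo3 and -0.11 in TROY. That of the mitotic genes was 0.09, 0.18, 0.19 and 0.26, and that of all tested genes 0.01, 0.02, 0.01 and 0.02. The mitotic median exceeded the S phase median by 0.14 in Lingo1, 0.26 in Lingo2, 0.29 in Lingo3 and 0.38 in TROY, and by 0.11 in the scratch comparison. In Lingo2 and in TROY all 20 mitotic members had a log2 fold above the S phase median, in Lingo3 18 and in Lingo1 17 had. With total counts in place of TMM scaling, the S phase medians were -0.13, -0.14, -0.17 and -0.19 and the mitotic medians 0.014, 0.11, 0.13 and 0.19. In the authors' deposited table, whose log2 ratios differed from those computed here by at most 0.024 for any member, the S phase medians were -0.06, -0.09, -0.11 and -0.13, and the mitotic medians 0.08, 0.165, 0.185 and 0.245.

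**Figure D3:**
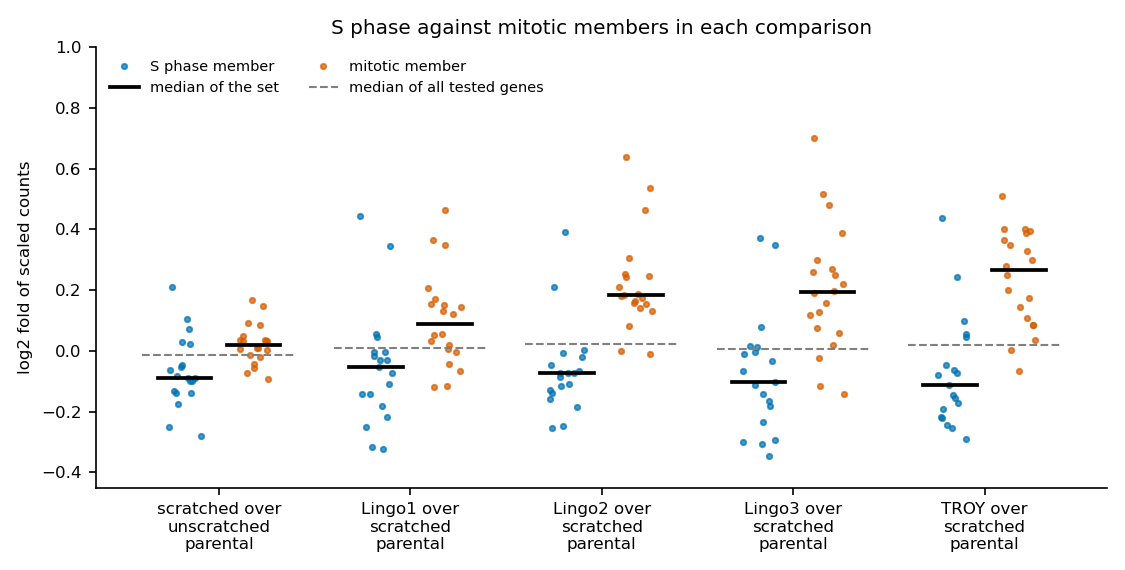
Log2 fold of each S phase member (blue) and mitotic member (orange) in the 5 comparisons, with the median of each set (black bar) and of all tested genes (dashed line). The mitotic median lies above the S phase median in each comparison, by 0.11 for the scratch and by 0.14 to 0.38 for the mutants.

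The plot of both sets by comparison shows that they overlap. Above the mitotic median lay 2 S phase members, Rrm2 and Ccne1, in Lingo1, Lingo2 and Lingo3, and Rrm2 alone in TROY. A second way to read the members is by whether all 4 mutant libraries lay on the same side of both parental libraries. Of the 19 S phase members, 12 lay below both parental libraries in every mutant, and 2 above. Of the 20 mitotic members, 13 lay above both and none below. Over all tested genes 24.2% lay above and 21.9% below. With total counts the figures were 14 S phase members below and 10 mitotic members above, against 29.8% of all tested genes below and 18.7% above. Some of these gaps are within counting error, and 5 S phase members (Mcm3, Mcm7, Cdc45, Tyms and Pcna) had counting intervals wholly below 1 in all 8 ratios of a mutant to a parental library. Among the mitotic members 11 had intervals wholly above 1 in all 8, as did Rrm2. Of all tested genes 12.3% had all 8 intervals above 1 and 10.04% below. Intervals are narrower at high counts, and for the 2608 tested genes averaging 100 CPM or more these shares were 23.0% and 9.09%.

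**Figure D4:**
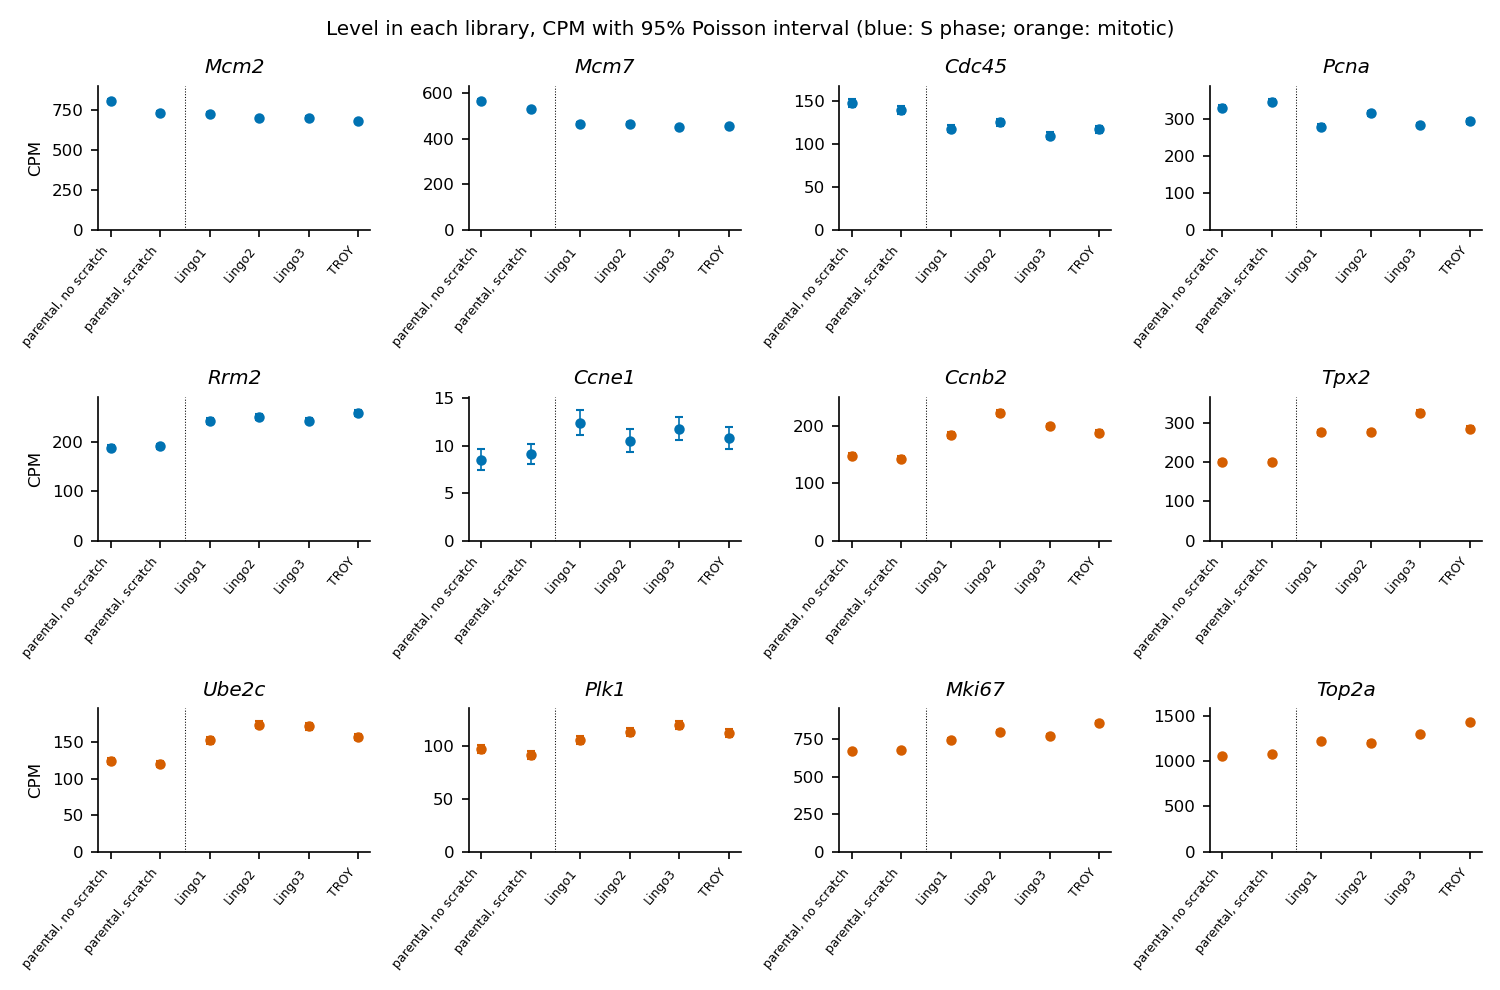
Level in each library, in CPM with its 95% Poisson interval, of 6 S phase members (blue) and 6 mitotic members (orange), with a dotted line between the 2 parental and the 4 mutant libraries. The points of Mcm2, Mcm7, Cdc45 and Pcna lie below both parental points in all 4 mutants, and those of the other 8 genes lie above both. The genes shown are a selection, and members whose mutant and parental libraries overlapped, such as Mcm6, Cdk1 and Kif11, are not drawn. Mcm2 in Lingo1 and Ccne1 in Lingo2 were within counting error of the scratched parental library.

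The MCM complex unwinds DNA at the fork, and its 6 subunits were among the most abundant members. Mcm7 (chromosome 5, 138164583 to 138172422, GRCm38) stood at 566, 529, 466, 465, 449 and 454 CPM. Its 4 mutant libraries lay close together and below both parental libraries, with folds against the scratched parental library of 0.882 (0.862 to 0.903) in Lingo1, 0.880 in Lingo2, 0.850 (0.831 to 0.870) in Lingo3 and 0.860 in TROY. Mcm3 stood at 442, 392, 364, 363, 365 and 354 CPM. Mcm2 (chromosome 6, 88883474 to 88898780) stood at 810, 736, 727, 700, 703 and 681 CPM, so that the step between the parental libraries, 0.909 (0.892 to 0.925), was larger than that from the scratched parental library to Lingo1, 0.988 (0.970 to 1.01). Mcm4 and Mcm5 lay below both parental libraries in every mutant as well, Mcm5 by as little as 421 against 418 CPM in Lingo3, which is within counting error. Mcm6 was the subunit that overlapped, at 486, 457, 475, 450, 463 and 490 CPM, highest in TROY. Exons of Mcm7 overlap those of other genes over 12.6% of their length. The median log2 fold of the 6 subunits was -0.03, -0.07, -0.08 and -0.09 in Lingo1, Lingo2, Lingo3 and TROY.

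Cdc6 and Cdt1 load the helicase, and Cdc45 and Gins2 complete and start it. Cdc45 (chromosome 16, 18780447 to 18811987) stood at 148, 139, 117, 125, 110 and 117 CPM. All 4 mutants lay below both parental libraries, and the fold in Lingo3, 0.786 (0.751 to 0.823), was the lowest of any S phase member in a mutant comparison. Inverted, this is 1.27-fold (1.22 to 1.33), short of the 1.3-fold rule. Gins2, a GINS subunit, stood at 120, 112, 101, 107, 98.6 and 91.6 CPM, but 67.3% of its exon length overlaps Gse1 on the other strand, and no source used here says whether the counting used strand. Cdc6 stood at 138, 126, 114, 115, 126 and 119 CPM, with Lingo3 within counting error of the scratched parental library. Cdt1, at 211, 177, 183, 167, 179 and 172 CPM, was highest without a scratch and differed between the scratched libraries by little.

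The 2 cyclin E genes, which activate Cdk2 at the start of S phase, stood in opposite order. Ccne1 (chromosome 7, 38097984 to 38107534), the least abundant member but for Fen1, stood at 8.45, 9.07, 12.3, 10.5, 11.7 and 10.7 CPM. All 4 mutants lay above both parental libraries, and Ccne1 was higher in Lingo1, at 1.36-fold (1.16 to 1.60). In Lingo2 the interval of the fold, 0.980 to 1.37, included 1. Ccne2 stood at 55.5, 64.2, 51.3, 53.9, 57.3 and 57.1 CPM. Its 4 mutants lay below the scratched parental library, with the lowest fold in Lingo1 at 0.799 (0.746 to 0.856), but around the unscratched one. Ccne2 exons overlap Ints8 on the other strand over 17.4% of their length.

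Ribonucleotide reductase makes deoxynucleotides, and its 2 subunits differed. Rrm2 (chromosome 12, 24708241 to 24714146), the subunit whose supply limits the enzyme outside S phase, stood at 189, 191, 243, 251, 244 and 260 CPM. The parental libraries were alike and all 4 mutants lay above them, at 1.27-fold (1.23 to 1.32) in Lingo1 and Lingo3, 1.31-fold (1.27 to 1.36) in Lingo2 and 1.36-fold (1.31 to 1.40) in TROY, the last 2 past the rule. Rrm1 stood at 503, 487, 485, 488, 450 and 502 CPM, lowest in Lingo3 at 0.925 (0.904 to 0.947). Tyms, thymidylate synthase, stood at 105, 107, 92.0, 98.7, 86.6 and 91.8 CPM. It lay below both parental libraries in every mutant, lowest in Lingo3 at 0.809 (0.769 to 0.852).

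Among the genes that act at or behind the fork, Pcna, the sliding clamp of the polymerases (chromosome 2, 132249162 to 132253314), stood at 332, 349, 280, 317, 285 and 295 CPM. Its mutants lay below both parental libraries, with folds of 0.803 (0.780 to 0.827) in Lingo1, 0.909 in Lingo2, 0.816 in Lingo3 and 0.845 in TROY. Uhrf1, which brings the maintenance DNA methyltransferase to newly copied DNA, did not separate, at 278, 268, 268, 255, 283 and 279 CPM. Ung, which removes uracil from DNA, stood at 60.4, 54.9, 53.0, 54.7, 53.6 and 49.3 CPM, most of these within counting error of the scratched parental library. Fen1, the flap nuclease, was listed at 7.75, 6.38, 6.06, 5.38, 5.18 and 5.58 CPM, but 84.2% of its exon length overlaps Tmem258 and Gm10143 on the other strand, so its level is uncertain where the counting did not use strand. Without Fen1 and Gins2 the S phase medians in the mutants lay between -0.08 and -0.03.

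The mitotic cyclins and Cdk1 open the second set. Ccnb2, cyclin B2 (chromosome 9, 70407692 to 70421547), stood at 148, 142, 184, 222, 199 and 188 CPM. Every mutant lay above both parental libraries, at 1.29-fold (1.24 to 1.34) in Lingo1, which fell short of the rule, 1.56-fold (1.499 to 1.62) in Lingo2, 1.40-fold (1.34 to 1.45) in Lingo3 and 1.32-fold (1.27 to 1.37) in TROY. The library furthest apart was Lingo2, which was also 1.21-fold (1.16 to 1.25) above Lingo1. Its relative Ccnb1 differed less, at 104, 111, 115, 126, 117 and 123 CPM, and Ccna2, cyclin A2, at 239, 245, 254, 283, 291 and 291 CPM. Cdk1 (chromosome 10, 69335146 to 69352938), the kinase that all 3 cyclins activate, stood at 258, 263, 243, 294, 243 and 252 CPM. Only the Lingo2 library lay above the parental ones, at 1.12-fold (1.08 to 1.15), and the other 3 mutants lay below both.

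Of the mitotic kinases, Plk1, the Polo-like kinase of mitotic entry (chromosome 7, 122159439 to 122169873), stood at 97.6, 91.6, 106, 113, 120 and 113 CPM. It was higher in Lingo3, at 1.31-fold (1.25 to 1.38), and its other folds were 1.15 in Lingo1, 1.24 in Lingo2 and 1.23 in TROY. Bub1b, a spindle checkpoint protein, stood at 138, 136, 152, 149, 168 and 157 CPM, again with all mutants above both parental libraries. Bub1 was level in 3 mutants and apart in TROY, at 78.5, 88.1, 87.9, 87.4, 89.2 and 107 CPM, a fold of 1.21 (1.15 to 1.28). Aurka stood at 74.0, 82.0, 82.3, 86.7, 93.6 and 86.9 CPM, with Lingo1 within counting error of the scratched parental library. Aurkb, the kinase of the chromosomal passenger complex, stood between 109 and 120 CPM in all 6 libraries and the groups overlapped.

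The kinetochore proteins Cenpe and Cenpf were furthest apart in TROY. Cenpf (chromosome 1, 189640606 to 189688086) stood at 196, 201, 222, 237, 224 and 264 CPM, with folds of 1.11, 1.18, 1.12 and, past the rule in TROY, 1.31 (1.27 to 1.36). Cenpe, a kinetochore motor, stood at 140, 141, 154, 160, 154 and 181 CPM and reached 1.29-fold (1.24 to 1.34) in TROY. Birc5, survivin, a partner of Aurkb, overlapped, at 172, 178, 173, 203, 186 and 183 CPM.

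The fold of Tpx2 in Lingo3 was the highest of any member in the 5 comparisons, while in Lingo2 Ccnb2 and Ube2c stood above it. Tpx2 targets Aurora kinase A to spindle microtubules (chromosome 2, 152847964 to 152895321), and stood at 200 and 201 CPM in the parental libraries and at 277, 277, 326 and 286 CPM in the Lingo1, Lingo2, Lingo3 and TROY mutants. The parental libraries were within counting error of each other (1.003, 0.967 to 1.04) and the mutants lay 1.38-fold (1.33 to 1.43), 1.38-fold (1.33 to 1.43), 1.63-fold (1.57 to 1.68) and 1.42-fold (1.38 to 1.47) above the scratched one. It was the member past the rule in all 4 mutants. The spindle motor Kif11 (chromosome 19, 37376403 to 37421859), which pushes the poles apart, overlapped instead, at 315, 334, 319, 334, 302 and 376 CPM, lowest in Lingo3 and highest in TROY, which stood 1.24-fold (1.21 to 1.28) above Lingo3. Kif23, the midzone motor of cytokinesis, stood at 150, 154, 167, 183, 179 and 193 CPM, all mutants above both parental libraries. Nusap1, a microtubule-bundling protein, stood at 164, 165, 152, 185, 163 and 175 CPM and did not separate.

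Ube2c and Cdc20 serve the anaphase-promoting complex, which marks cyclin B and securin for destruction. Ube2c, its ubiquitin-conjugating enzyme (chromosome 2, 164769898 to 164778822), stood at 124, 120, 153, 174, 171 and 157 CPM. The mutants lay clear of the parental libraries, at 1.27-fold (1.22 to 1.33) in Lingo1, short of the rule, and past it at 1.45-fold (1.39 to 1.51) in Lingo2, 1.43-fold (1.37 to 1.49) in Lingo3 and 1.31-fold (1.25 to 1.37) in TROY. Its exons overlap Tnnc2 on the other strand over 22.8% of their length. Cdc20, the activator, stood at 188, 186, 188, 210, 224 and 186 CPM. Only Lingo2 and Lingo3 lay above the parental level, at 1.13-fold (1.09 to 1.17) and 1.21-fold (1.16 to 1.25), and Lingo1 and TROY were within counting error of it.

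Top2a and Mki67, widely used labels of dividing cells, were the most abundant mitotic members by count. Top2a, which untangles sister chromatids (chromosome 11, 98992943 to 99024189), stood at 1061, 1085, 1222, 1208, 1299 and 1433 CPM. TROY was highest at 1.32-fold (1.302 to 1.34), past the rule, beside 1.13-fold in Lingo1, 1.11-fold in Lingo2 and 1.198-fold in Lingo3. Mki67, a coat protein of mitotic chromosomes (chromosome 7, 135689784 to 135716361), stood at 671, 675, 747, 800, 773 and 859 CPM, with its highest fold in TROY at 1.27 (1.25 to 1.297). Neither separated the 2 parental libraries by more than 1.02-fold.

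Per length, Pcna, Mcm2 and Top2a had the highest levels. In the scratched parental library the authors' deposited RPKM values, which divide by gene length, were 229 for Pcna, 209 for Mcm2, 207 for Top2a and 177 for Mcm7. They were 66.7 for Mki67 and 17.9 for Cenpf, long transcripts whose counts are high, and 4.51 for Ccne1. Ccnb2 passed Cdc20 on this scale, at 142 against 115 RPKM in the Lingo2 mutant, while in the scratched parental library it stood below it, at 92.5 against 103.

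The mutants also differed from each other, which the shared control does not affect. The mitotic median of Lingo2, Lingo3 and TROY lay 0.10, 0.10 and 0.09 log2 units above that of Lingo1 when each was set directly against it. Between Lingo2, Lingo3 and TROY the medians of the mitotic genes differed by at most 0.03. The S phase medians of the 6 pairs of mutants lay between -0.04 and 0.00. Among single members, Tpx2 stood highest in Lingo3, Ccnb2 in Lingo2, and Bub1, Cenpe, Kif11 and Top2a in TROY. Being named as extremes among the 39 members, they differ by more than the medians through that choice.

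Other genes of the same pathways were read from lists that the members do not overlap. Of 46 further DNA replication genes, 9 were lower in Lingo1, 3 in Lingo2, 10 in Lingo3 and 5 in TROY, and none was higher in any, with medians of -0.17, -0.14, -0.24 and -0.09. The background for lower genes was 9.46%, 8.60%, 14.1% and 7.57%, and for higher genes 11.3%, 11.1%, 17.4% and 9.02%. Cdc7, the kinase that fires origins, stood at 47.8, 53.4, 31.2, 33.6, 32.2 and 43.4 CPM and was lower in Lingo1, at 0.585 (0.538 to 0.636), Lingo2, at 0.631, and Lingo3, at 0.604. Rfc3, a subunit of the clamp loader, stood at 149, 151, 103, 119, 94.2 and 107 CPM and was lower in Lingo1, Lingo3 (0.622, 0.593 to 0.652) and TROY. Pole2, a polymerase epsilon subunit, was lower in Lingo1, at 0.756, and Lingo3, at 0.585 (0.532 to 0.642). Orc1, of the origin recognition complex, was lower in all 4 mutants, at 0.675, 0.747, 0.689 and 0.733. Of the 46 genes, 28 lay below both parental libraries in all 4 mutants and 1 above, against 21.9% and 24.2% of all tested genes.

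The 57 further mitotic genes had medians nearer to 0 than the mitotic members in all 4 mutants. The medians were -0.02, 0.07, -0.01 and 0.11 in Lingo1, Lingo2, Lingo3 and TROY. Higher and lower genes numbered 1 and 2 in Lingo1, 2 and 0 in Lingo2, 2 and 6 in Lingo3, and 1 and 0 in TROY. The background was 11.3% and 9.46%, 11.1% and 8.60%, 17.4% and 14.1%, and 9.02% and 7.57%, so in Lingo1, Lingo2, Lingo3 and TROY both directions held fewer of the 57 than their share of all tested genes. Cdc25b, a phosphatase that activates Cdk1, was higher in all 4, from 86.0 CPM in the scratched parental library to between 115 and 126 CPM, or 1.33-fold to 1.47-fold. Pttg1, securin, was higher in Lingo2 at 1.41-fold (1.32 to 1.52). Cenpk, of the inner kinetochore, was lower in Lingo1, at 0.716, and Lingo3, at 0.661, and the spindle motor Kif15 and the centromere chaperone Hjurp were lower in Lingo3, at 0.673 and 0.722. Of these 57, 18 lay above both parental libraries in all 4 mutants and 4 below, against 24.2% and 21.9% of all tested genes.

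The largest folds of the pathway genes were those of inhibitors that hold the cycle in G1. Cdkn1a, the p21 inhibitor of cyclin-dependent kinases, stood at 5.30, 4.64, 19.7, 15.2, 20.5 and 15.9 CPM, past the 2-fold rule in Lingo1 (4.24-fold, 3.52 to 5.14), Lingo2 (3.27-fold), Lingo3 (4.43-fold) and TROY (3.43-fold). Cdkn1c, the p57 inhibitor, stood at 2.44, 1.25, 1.99, 2.65, 11.1 and 1.86 CPM, past the 2-fold rule in Lingo3 alone, at 8.88-fold (6.33 to 12.8). Short of that rule, Cdkn1c was higher in Lingo2, at 2.12-fold (1.42 to 3.23), and lower with the scratch, at 0.511 (0.335 to 0.770). Cdkn1b, the p27 inhibitor, stood at 562, 569, 432, 447, 358 and 471 CPM and was lower in Lingo1 and Lingo3. Cdkn2b, the p15 inhibitor, was higher in all 4, at 1.42-fold to 1.55-fold. Ccnd1, cyclin D1, which drives cells from G1 towards S phase, stood at 618, 654, 1075, 973, 983 and 1070 CPM, at 1.49-fold to 1.64-fold in the mutants, and Ccnd2 was higher in Lingo1 (1.34-fold) and TROY (1.61-fold). Cdk2, the kinase that cyclin E activates, was lower in Lingo3, at 0.713 (0.678 to 0.751). Of the 22 E2F, pocket protein, MuvB and FoxM1 genes none was higher in Lingo1, Lingo2, Lingo3 or TROY, where 11.3%, 11.1%, 17.4% and 9.02% of tested genes were. In the same order 1, 0, 4 and 1 were lower, where 9.46%, 8.60%, 14.1% and 7.57% of tested genes were. Lin9, a MuvB subunit, was lower in Lingo1, at 0.744, and Lingo3, at 0.687. Foxm1 itself stood at 405, 417, 435, 410, 442 and 466 CPM, and E2f1 at 88.5, 82.2, 85.4, 84.1, 101 and 83.9 CPM.

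**Figure D5:**
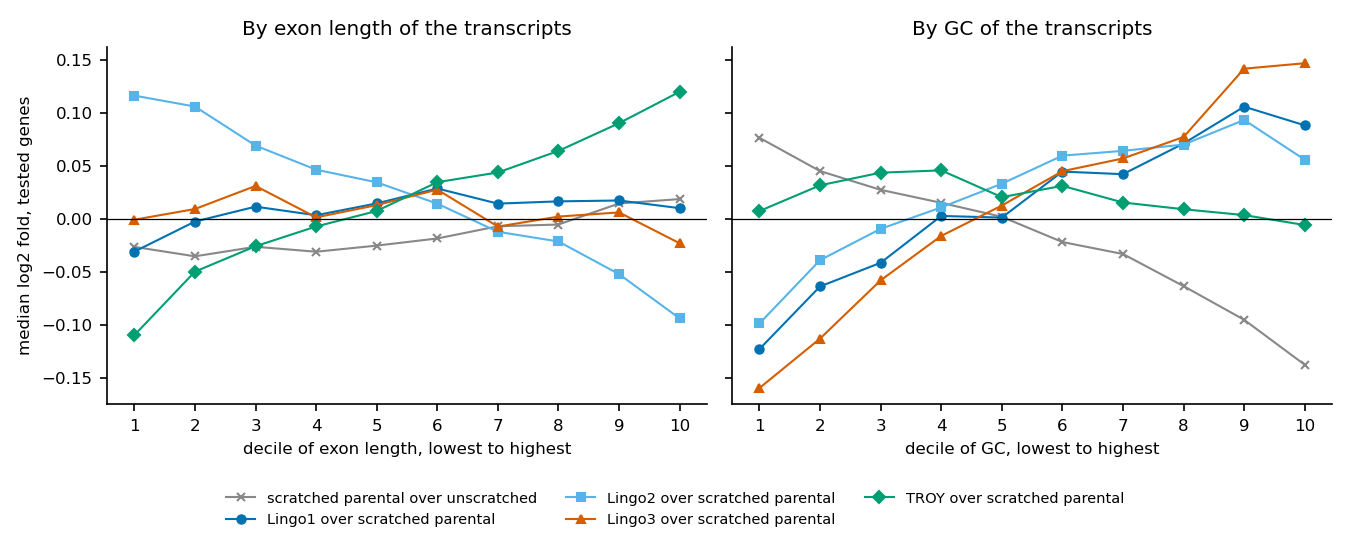
Median log2 fold of all tested genes by decile of exon length (left) and of GC content (right), 1 line per comparison. The TROY line runs from -0.11 to 0.12 and the Lingo2 line from 0.12 to -0.09 with length. The Lingo1, Lingo2 and Lingo3 lines rise over most of the GC range and the scratch line falls with GC.

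Properties of the transcripts moved with the folds over all tested genes, as the plot by length and GC shows. In TROY the median log2 fold went from -0.11 in the shortest decile of exon length to 0.12 in the longest, and in Lingo2 from 0.12 to -0.09. With GC it went from -0.16 to 0.15 in Lingo3, from -0.12 to 0.09 in Lingo1 and from 0.08 to -0.14 with the scratch. In Lingo2 it went from -0.10 in GC decile 1 to 0.09 in decile 9 and 0.06 in decile 10. The S phase genes had a median GC of 51.3% and a median exon length of 3993 bases, the mitotic genes 47.2% and 4246 bases, and all tested genes 50.2%. Centred on genes of like GC, the mitotic median exceeded the S phase median by 0.21, 0.35, 0.32 and 0.36 in Lingo1, Lingo2, Lingo3 and TROY and by 0.08 with the scratch. Centred on genes of like exon length, it did so by 0.14, 0.27, 0.29, 0.37 and 0.09. Of the long members, Cenpf, Cenpe, Kif11, Kif23, Mki67 and Top2a were highest in TROY. Others were not, as Rrm1 was highest in the unscratched parental library and Mcm2 was lowest in TROY. The part of length in the values of these members was not tested gene by gene.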

How the data were processed

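RNA from 6 cultures was sequenced from an mRNA library kit, per the labels' protocols. The authors deposited raw read counts per Ensembl gene, and a second table with values per gene taken here as RPKM and log2 ratios of them for the 5 comparisons, with no p-value. The deposited RPKM followed the scaled counts times a factor per gene and per library to an SD of 0.000998 log2 units over 7112 well-counted genes. Trimmomatic 0.39, STAR, HTSeq, edgeR and build GRCm38 are named in the submitters' processing notes, with no order or settings. The counting's use of strand is not given in the sources used here. Between 3.53% and 5.60% of each library's total, summary lines included, was assigned to no feature. A further 28.7% to 31.3% was not uniquely aligned and 2.35% to 2.80% was ambiguous between genes. These summary lines stayed out of the gene counts and library sizes.

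Symbols, positions, exon length and GC came from GENCODE release M21 on GRCm38, which matched 45143 of 46078 identifiers. Counts were scaled with TMM factors (edgeR 4.0.16, R 4.3.3) over the 6 libraries. Clopper-Pearson intervals were computed for folds, from the split of 2 counts, and Poisson intervals for levels. Both cover counting error only, because each group has 1 library. No molecular identifiers are named, so reads may be copies of 1 molecule and the intervals may be too narrow even for counting error. The calculations were tested on simulated data. DESeq2 1.42.0 size factors, total counts, upper quartile factors, TMM without the listed genes, a minimum of 5 CPM, no minimum, a 1.5-fold rule and the unscratched control were tried as alternatives. Centring by length or GC, leaving out Fen1 and Gins2 and leaving out each library from the count of separated members, the sums in RPKM and the count of intervals on 1 side of 1 were chosen after seeing the data.

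All 39 members could be named. Of the other pathway lists, genes past the 2-fold rule, and up to 4 a list and comparison with the largest log2 fold past the 1.3-fold rule, were named. Foxm1 and E2f1 are named outside this rule, as regulators chosen after their values were seen. The members and lists were chosen with earlier results of these data known.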

Additional observations from a re-analysis of the deposited data

How the results depend on the processing

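No paired analysis was possible because each group has 1 library. Of 399 values under alternatives, 354 stayed as reported, 45 moved and 0 were labelled reversed. Of these, 177 were medians or differences, of which 158 stayed and 19 moved, and counts among the rest cannot change sign. The ratios of sums in RPKM were labelled moved without a check for reversal. In the 4 mutants the mitotic sum was the larger by read count and the smaller in RPKM, so the order of the sums reversed between those scales. Summed in the authors' RPKM, the ratio of the mitotic to the S phase sum was 0.714, 0.758, 0.865, 0.935, 0.951 and 0.951 in the unscratched parental, scratched parental, Lingo1, Lingo2, Lingo3 and TROY libraries. With total counts the S phase medians were -0.13, -0.14, -0.17 and -0.19 in Lingo1, Lingo2, Lingo3 and TROY and the mitotic medians 0.014, 0.11, 0.13 and 0.19. With total counts no S phase member was higher in Lingo1, Lingo2 or TROY (0 each), 2 were lower in Lingo1 and 1 in Lingo3, and 1 mitotic member was higher in TROY. Against the unscratched parental library the S phase medians were -0.19, -0.14, -0.21 and -0.19, and the mitotic excess over them was 0.33, 0.36, 0.44 and 0.46. With that control 1 S phase member was higher in Lingo3, and 1 was lower in Lingo2, 2 in Lingo3 and 2 in TROY. Centred on genes of like GC, the mitotic excess was 0.21 in Lingo1 and 0.35 in Lingo2, and the S phase median -0.14 in Lingo2. Under the 1.5-fold rule 0 S phase members were higher in Lingo1, Lingo2 and TROY, and 0, 1, 1 and 0 mitotic members in Lingo1, Lingo2, Lingo3 and TROY. DESeq2 size factors left 0 S phase members higher in Lingo2, and TMM without the listed genes gave 2 mitotic members higher in Lingo1. The shares of all tested genes called under these alternatives are not given here, so these counts of called members cannot be set against a background. Without the Lingo2 library 1 mitotic member, Cdk1, lay below both parental libraries in the other mutants, as did 27.0% of all tested genes. Except for the choice of genes, samples or threshold that these alternatives make, the cause was not tested. Depth was not the limit for members other than Fen1 and Ccne1, since counting intervals were narrow. The spread between cultures was not measured.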
